A study of Mus musculus with 2 samples.

Results

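The genes described here are the solute carriers expressed in differentiating mouse embryonic stem cells (ESCs). They were taken from the deposited gene table by name and level: the symbol is Slc, a family number, the letter a and a member number, or begins with Slco, and the FPKM (fragments scaled for transcript length and library size) was at least 2 in at least 1 of 2 libraries. Slc2a1, Slc2a3, Slc16a1, Slc16a3, Slc22a18, Slc38a4 and Slc25a31 were left out by name. Of 359 genes with such a symbol among 24354 genes in all, 189 were kept, in 45 families. They are 189 of 12376 genes that reached the same FPKM, which are called the expressed genes below. The members were selected on the FPKM values of both libraries, so levels and ratios are given as a description with no test.

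The study asked how loss of Ino80, the ATPase of a chromatin remodelling complex, alters ESCs as they differentiate toward mesoderm. Diff–CONT ESCs came from Ino80 2f/2f blastocysts with no Cre, and their label gives the genotype as WT. Diff–iKO ESCs came from Ino80 2f/2f;ROSA26-CreER blastocysts, in which the floxed alleles are deleted once 4-hydroxytamoxifen (4-OHTM) activates a Cre that is expressed from a broadly active locus. Both were grown as embryoid bodies, attached at day 4, and then fed medium with BMP4 and 0.5 µM 4-OHTM for 7 days, so the controls received the drug too but carried no CreER. The number of lines or clones behind each condition is not given, and feeder cells were used when the lines were derived.

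Each condition was 1 library, so no difference between the conditions has a replicate check and no p-value is given. About 28178728 fragments lay on genes in Diff–CONT against 21924856 in the library labelled Diff–iKO, as recovered from the steps of the FPKM values. Intervals of log2 ratios are exact 95% Clopper-Pearson intervals on these fragments, and they cover counting error only. Whole-gene Ino80 was 8.90 and 10.3 FPKM, a log2 ratio of 0.21 (interval 0.11 to 0.31). The library labelled as the knockout thus had no less of it, although this value does not separate the deleted exons from the rest of the gene. That library is called the library labelled Diff–iKO throughout, and every direction below rests on this label. Xist, the RNA of the inactive X, had 34 and 1428 fragments and a log2 ratio of 5.81 (interval 5.32 to 6.35). The X-linked members are also counted apart.

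Solute carriers are membrane proteins that move nutrients, ions, metals, vitamins and metabolites across the plasma membrane and the membranes of organelles. Some run down a gradient, others exchange 1 substrate for another, and many couple uptake to sodium or protons. Members of a family often share a substrate but differ in the tissue and the membrane where they act. In pluripotent cells they supply the amino acids and sugars used for rapid growth, while yolk sac, gut-like and kidney-like epithelia each add a set of their own.

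More solute carriers rose than fell from Diff–CONT to the library labelled Diff–iKO. With a cut-off of a 2-fold ratio, 26 of 189 members rose, where 6.73% of all expressed genes did. Another 13 fell, where 8.39% of all expressed genes did, and the 39 together stand beside 15.1% of all expressed genes past the cut-off in either direction. The median log2 ratio was 0.27 over the members and -0.00435 over all expressed genes. Of the members, 124 had a ratio above 0 and 65 below it. The members were admitted by the same values, and 16 passed the FPKM minimum in the library labelled Diff–iKO alone and 13 in Diff–CONT alone. Among the 160 members at FPKM 2 or more in both libraries, 16 rose and 5 fell, where 4.37% and 5.1% of the genes so filtered did. Among the 93 members whose mean FPKM was 10 or more, 13 rose and 2 fell, where 4.46% and 3.86% of all genes at that level did, and the median log2 ratios were 0.29 and 0.04. The count that fell rested on low genes: it was 8 with a pseudocount of 1, where 5.75% of expressed genes fell, and 5 with FPKM of at least 5 in 1 library, where 6.54% did. At a fold of 1.5 the counts were 57 higher and 24 lower, where 14.9% and 17.6% of expressed genes passed. Without a filter on FPKM they were 64 and 41, where 11.8% and 12% of genes above 0 in both libraries passed.

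**Figure D1:**
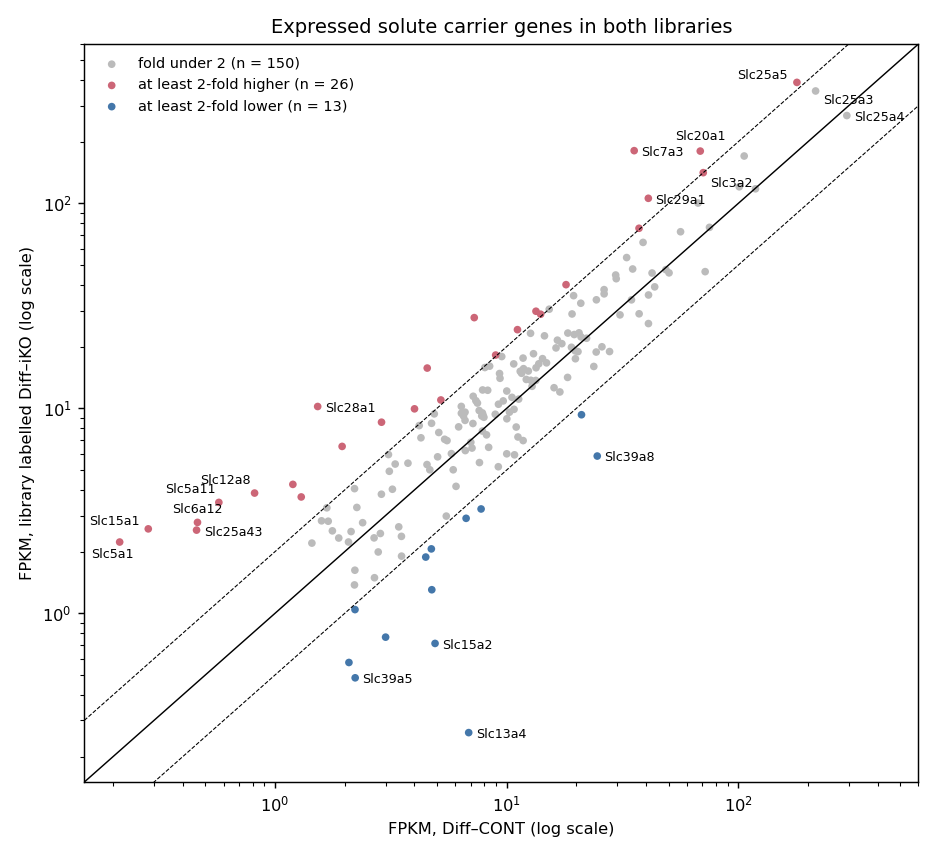
FPKM of each of the 189 solute carriers in Diff–CONT (x axis) and the library labelled Diff–iKO (y axis), both on log scales, with a solid line at equal values and dashed lines at a 2-fold ratio. The 26 members that rose span low genes such as Slc5a1 and abundant ones such as Slc25a5, and Slc13a4 lies farthest below the line.

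The members that moved were mostly low in level. The median of the mean FPKM was 5.49 for the 39 members past the cut-off and 10.3 for the 150 others. In all, 8 rose and 4 fell by 4-fold or more, where 2.25% and 1.91% of all expressed genes did. Of these only Slc7a3 and Slc39a8 reached the FPKM minimum in both libraries. The others passed it only in the library where they were high, which fixed their direction. By counting error alone, the interval lay wholly above 0 for 113 members and wholly below 0 for 51, and it spanned 0 for 25. Over all expressed genes with a transcript length, 38.8% lay wholly above 0 and 39.1% wholly below. The interval lay wholly past the cut-off for 20 of the members that rose and 9 of those that fell, beside 4.84% and 5.47% of the genes with an interval. The members nearest the FPKM minimum were Slc17a8, kept at 2.08 FPKM, and Slc25a45, left out at 1.98. At the 2-fold line, Slc3a2 stood just past it at a 2.001-fold ratio and Slc45a4 just short of it at 1.995-fold. On the lower side Slc8a1 stood past it at 2.12-fold and Slc7a8 short of it at 1.84-fold.

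Markers of other cell types moved between the same libraries. Of 5 pluripotency genes, 4 rose, and their summed level was 133 FPKM in Diff–CONT against 453 in the library labelled Diff–iKO. Of 8 genes of visceral endoderm and yolk sac, 7 fell and Trf rose, and their sum was 320.4 and 21.4 FPKM. Of 4 erythroid genes, 2 passed the FPKM minimum and fell, with a sum of 145 and 0.0543 FPKM, and Hbb-bh1, Hba-x and Alas2 were listed at 0 in the library labelled Diff–iKO. Among 5 endothelial genes 4 fell and 1 rose, Pecam1, from 16.2 to 53.9 FPKM, and most of the summed level of 65.5 FPKM, against 48.4 in Diff–CONT, was this gene. Of 5 cardiomyocyte genes, 2 passed the minimum and fell, with sums of 27.3 and 7.94 FPKM. Of 5 mesenchyme genes 2 fell and 4 had ratios below 0, and the sums of 1335 and 1424 FPKM were carried by Col1a1, at 879.6 and 1199 FPKM. Of 4 trophoblast genes 2 rose and 1 fell, with sums of 5.62 and 12.8 FPKM. In these bulk samples fewer cells of a type and less RNA per cell cannot be told apart. The part of these shifts in the ratios of the solute carriers was not tested.

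The promoters of the members ranged from CG-rich to nearly free of CG. RefSeq promoter windows on GRCm38.p6, from 250 bases before to 50 after a start, were at hand for 144 of the 189 members and 29 of the 39 past the cut-off. The median number of CG dinucleotides per window was 19.5 for the members and 21 for the 9886 expressed genes with a window. It was 15 for the 19 members that rose, 9.5 for the 10 that fell and 20 for the 115 others. Over all expressed genes the corresponding medians were 11, 16 and 22. Members past the cut-off with a mean FPKM under 10 had a median of 9, and those at or above 10 a median of 19.5. Among the members not past it the medians were 20 and 21. The 250 bases before the start of 5 members past the cut-off are shown to let this range be seen, in order of CG number, each CG in capitals and the strand of the gene read 5′ to 3′.
Slc22a23 (fell, 32 CG, chr13:34345219-34345468, minus strand): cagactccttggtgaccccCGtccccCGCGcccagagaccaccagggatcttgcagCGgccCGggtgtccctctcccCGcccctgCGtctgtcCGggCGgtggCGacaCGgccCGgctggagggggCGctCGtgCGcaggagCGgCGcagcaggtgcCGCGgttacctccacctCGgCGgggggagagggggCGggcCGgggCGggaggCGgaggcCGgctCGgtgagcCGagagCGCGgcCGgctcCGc
Slc19a2 (rose, 23 CG, chr1:164248796-164249045, plus strand): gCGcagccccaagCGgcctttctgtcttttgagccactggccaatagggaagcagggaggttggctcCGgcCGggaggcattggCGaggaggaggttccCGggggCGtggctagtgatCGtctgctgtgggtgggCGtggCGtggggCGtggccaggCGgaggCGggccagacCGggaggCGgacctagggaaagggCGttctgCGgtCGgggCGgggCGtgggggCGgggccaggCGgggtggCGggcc
Slc25a5 (rose, 14 CG, chrX:36795347-36795596, plus strand): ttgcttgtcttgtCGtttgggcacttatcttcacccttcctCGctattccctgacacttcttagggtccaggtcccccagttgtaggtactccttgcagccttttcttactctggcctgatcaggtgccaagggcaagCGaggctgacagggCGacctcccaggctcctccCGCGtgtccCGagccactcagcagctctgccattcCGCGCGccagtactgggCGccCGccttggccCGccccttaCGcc
Slc13a4 (fell, 5 CG, chr6:35308127-35308376, minus strand): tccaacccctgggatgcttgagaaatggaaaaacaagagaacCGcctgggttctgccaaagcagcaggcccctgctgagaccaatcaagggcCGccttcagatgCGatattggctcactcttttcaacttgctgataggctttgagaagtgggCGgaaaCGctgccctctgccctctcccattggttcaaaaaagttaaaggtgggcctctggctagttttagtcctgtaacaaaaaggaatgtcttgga
Slc28a1 (rose, 4 CG, chr7:81114549-81114798, plus strand): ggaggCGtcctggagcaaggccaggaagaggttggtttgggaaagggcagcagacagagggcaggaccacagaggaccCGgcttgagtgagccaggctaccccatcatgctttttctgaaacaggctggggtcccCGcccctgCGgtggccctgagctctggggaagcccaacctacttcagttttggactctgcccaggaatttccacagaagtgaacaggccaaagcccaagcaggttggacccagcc
These 5 were picked to show the range and say nothing of the members at large. Motifs were searched in the windows on both strands. The metal response element TGCNCNC was in 65.3% of the members with a window and 65.2% of expressed genes. By substrate class it ran from 38.1% of the amino acid carriers to 81.3% of the sugar carriers, with the metal carriers at 77.3%. The E-box CACGTG was in 16.7% and 11.9%, and the amino acid response element TGATGNAA in 3.47% and 2.56%. The latter was in 2 of 21 amino acid carriers, or 9.52%. A match describes the letters of the window and is not a bound site.

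By substrate, 9 classes were formed from family and known cargo, plus 5 genes that are only named after a carrier. The class medians lay above 0 in all but the neurotransmitter and osmolyte class. They ran from 0.21 for metals and 0.24 for amino acids to 0.47 for organic anions, cations and lipids and 0.70 for vitamins and choline, the last of which was 0.025 without a filter on FPKM. No difference between classes was tested.

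**Figure D2:**
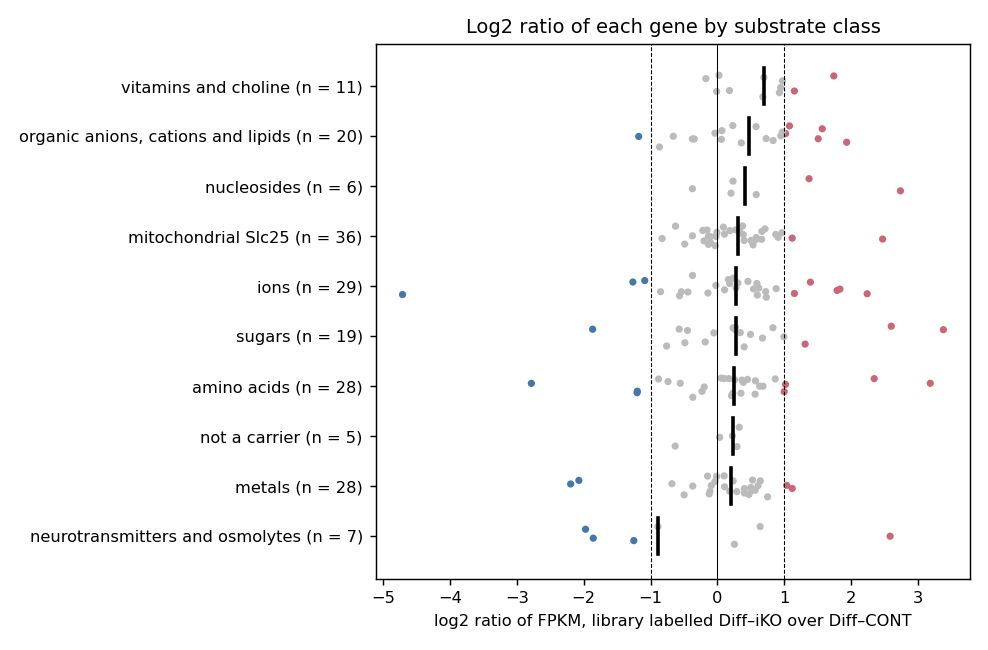
Log2 ratio of FPKM, the library labelled Diff–iKO over Diff–CONT, for each solute carrier by substrate class, with the class median as a bar and dashed lines at a 2-fold ratio. The 7 neurotransmitter and osmolyte carriers have the lowest median, -0.89, and the 11 vitamin and choline carriers the highest, 0.70, under the FPKM minimum used. The first was 0.45 with FPKM of at least 2 in both libraries, and the second 0.025 without a filter.

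The cationic amino acid carrier Slc7a3 and both chains of a large neutral amino acid exchanger, Slc7a5 and Slc3a2, were higher in the library labelled Diff–iKO. Of 28 amino acid and peptide carriers 4 rose and 3 fell, where 6.73% and 8.39% of all expressed genes did. The summed level of the 28 was 597 FPKM in Diff–CONT against 949 in the other library. Slc7a3 (chrX:101079210-101086020 on GRCm38), a carrier of arginine and lysine, rose from 35.5 to 181 FPKM, a log2 ratio of 2.35 (interval 2.28 to 2.42). It was the most abundant of the 28 in that library, and it made up most of the summed level of the cationic carriers Slc7a1, Slc7a2 and Slc7a3, which was 48.6 and 195 FPKM. Neither of the other 2 rose past the cut-off, though Slc7a1 went the same way, with a log2 ratio of 0.57 (interval 0.47 to 0.66). Slc7a1, the widely expressed member, had 8.28 and 12.3 FPKM, and Slc7a2 fell from 4.73 to 2.06 FPKM, short of the cut-off with a pseudocount of 1 (-0.90).

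Slc3a2 is the heavy chain that carries several Slc7 light chains to the plasma membrane. It rose from 70.6 to 141 FPKM, a log2 ratio of 1.00 (interval 0.94 to 1.06), and its light chain Slc7a5 from 37.3 to 75.7 FPKM, a log2 ratio of 1.02 (interval 0.96 to 1.08). Both stood so near the cut-off that their intervals crossed it, and with the libraries scaled to the same FPKM sum they had log2 ratios of 0.91 and 0.93. The other light chains went several ways. Slc7a7 had 19.5 and 35.5 FPKM, Slc7a6 37.3 and 28.9 and Slc7a8 5.49 and 2.98, none past the cut-off.

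Of 3 peptide carriers 1 rose, 1 fell, and the most abundant, Slc15a4, had 11.6 and 14.8 FPKM. The 2 that moved passed the FPKM minimum only in the library where they were high. Slc15a1, the proton-coupled carrier of short peptides in the gut, rose from 0.284 to 2.58 FPKM, a log2 ratio of 3.19 (interval 2.57 to 3.85). Slc15a2, its kidney and brain relative, fell from 4.91 to 0.713 FPKM, a log2 ratio of -2.78 (interval -3.69 to -1.98). Diff–CONT and the other library had 25 and 169 fragments on Slc15a1, and 129 and 14 on Slc15a2. Slc6a15, which takes up branched neutral amino acids, fell from 6.68 to 2.91 FPKM, short of the cut-off with a pseudocount of 1 (-0.98).

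The glutamine and alanine carriers stayed within 2-fold. Slc38a2, the sodium-coupled carrier that responds to amino acid supply, had 106 and 170.4 FPKM, and Slc38a10 56.4 and 72.8. Slc1a5, a glutamine exchanger, had 35.00 and 47.9 FPKM and Slc1a3, a glutamate carrier, 27.8 and 18.9. None of the 7 Slc38 members passed the cut-off, and their log2 ratios ran from -0.74 for Slc38a3 to 0.68 for Slc38a2.

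**Figure D3:**
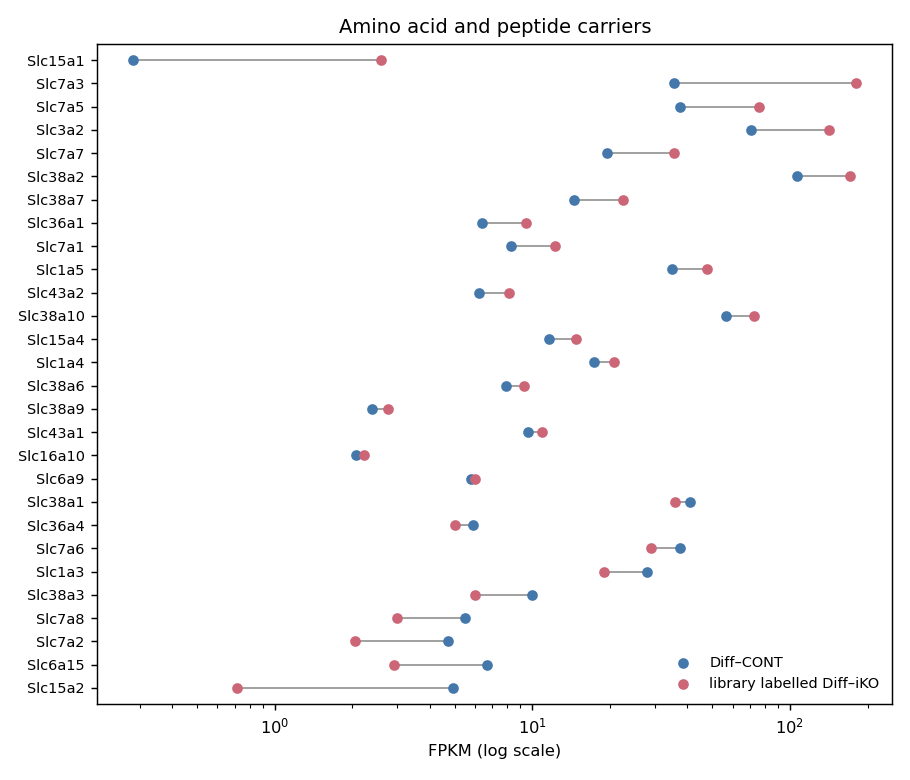
FPKM (log scale) of the 28 amino acid and peptide carriers in Diff–CONT and the library labelled Diff–iKO, joined by a line for each gene and ordered by their ratio. Slc7a3 stands out among the abundant genes, from 35.5 to 181 FPKM, and Slc15a2 lies at the bottom, from 4.91 to 0.713 FPKM.

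The sodium-coupled sugar and inositol carriers Slc5a1 and Slc5a11 were low in Diff–CONT and rose, while the insulin-responsive glucose carrier Slc2a4 fell. Of 19 sugar carriers 3 rose and 1 fell, where 6.73% and 8.39% of all expressed genes did. Slc5a1, which takes up glucose with sodium in gut and kidney, rose from 0.213 to 2.23 FPKM, the highest ratio of any member at a log2 of 3.38 (interval 2.78 to 4.05). Slc5a11, a sodium-coupled inositol carrier, rose from 0.572 to 3.48 FPKM, a log2 ratio of 2.60 (interval 2.09 to 3.15). All 6 expressed Slc5 members, which also carry iodide, choline and vitamins, had a ratio above 0, where 49.7% of expressed genes did, and their summed level was 32.2 and 66.7 FPKM. Of the 6, Slc5a1 and Slc5a11 passed the FPKM minimum only in the library labelled Diff–iKO, which fixed their direction.

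Slc37a1, a sugar phosphate exchanger of the endoplasmic reticulum, rose from 4.001 to 9.95 FPKM. Its relative Slc37a4, which brings glucose 6-phosphate into the same compartment, had 11.8 and 6.96 FPKM. Slc2a4, the glucose carrier of muscle and fat, fell from 4.75 to 1.30 FPKM, a log2 ratio of -1.87 (interval -2.27 to -1.49). It passed the FPKM minimum only in Diff–CONT, which fixed its direction. The 5 Slc35a carriers, which bring nucleotide sugars into the Golgi, had a summed level of 73.7 and 73.4 FPKM, with no member past the cut-off.

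A phosphate carrier, an iodide carrier and 2 of 7 Slc4 carriers were higher in the library labelled Diff–iKO, while the sulfate carrier Slc13a4 had the lowest ratio of any member. Of 29 ion carriers 5 rose and 3 fell, where 6.73% and 8.39% of all expressed genes did. Slc4a5 and Slc12a8 passed the FPKM minimum only in the library labelled Diff–iKO, and Slc13a4 and Slc8a1 only in Diff–CONT, which fixed their direction. Slc13a4 (chr6:35267957-35308131), a sodium-coupled sulfate carrier, fell from 6.86 to 0.262 FPKM with 665 and 19 fragments, a log2 ratio of -4.71 (interval -5.45 to -4.05), or 26.2-fold. The visceral endoderm and yolk sac markers, of which 7 of 8 fell, moved the same way, and their part in this fall was not tested. Slc20a1 (chr2:129198764-129211616), the main sodium-coupled phosphate carrier by level, rose from 68.6 to 180.1 FPKM, a log2 ratio of 1.39 (interval 1.35 to 1.44). Its paralogue Slc20a2 had 29.6 and 44.7 FPKM, short of the cut-off.

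Slc4a11 rose from 4.54 to 15.7 FPKM and Slc4a5, a sodium bicarbonate carrier, from 1.19 to 4.26. The other 5 Slc4 members had log2 ratios from -0.54 for Slc4a4 to 0.54 for Slc4a8. Slc5a5, the iodide carrier of the thyroid, rose from 13.4 to 29.8 FPKM, and Slc12a8, an outlying member of the cation-chloride family, from 0.816 to 3.86. The potassium-chloride carriers, which let cells lose volume, had a summed level of 89.3 and 137 FPKM with none of 4 past the cut-off. The most abundant of them were Slc12a4, at 38.8 and 64.5 FPKM, and Slc12a7, at 32.97 and 54.4.

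The sodium-calcium exchangers Slc8a1 and Slc8a2, which clear calcium after excitation in heart and nerve, fell, while Slc8b1, a mitochondrial relative outside the naming rule, had 15.05 and 28.6 FPKM. Slc8a1, the cardiac form, fell from 2.21 to 1.04 FPKM, a log2 ratio of -1.09 (interval -1.49 to -0.68), and Slc8a2 from 7.76 to 3.23 FPKM, a log2 ratio of -1.26 (interval -1.44 to -1.10). With a pseudocount of 1 the log2 ratio of Slc8a1 was -0.65, short of the cut-off. Both cardiomyocyte markers that passed the minimum, Tnnt2 and Myh7, fell between the same libraries, from 14.7 to 4.17 and from 8.96 to 1.44 FPKM. Of those under the minimum, Myh6 had 1.85 and 0.207 FPKM, Actn2 1.49 and 1.23, and Nppa, which went up, 0.259 and 0.898. The part of the cardiomyocyte markers in the level of Slc8a1 was not tested.

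Of 13 zinc importers 2 rose and 2 fell, and the 8 zinc exporters stayed within 2-fold. Over all 28 metal carriers 7.14% rose and 7.14% fell, near the 6.73% and 8.39% of all expressed genes. Slc39 proteins bring zinc and other metals into the cytosol and Slc30 proteins move zinc out of it. Slc39a4, the zinc importer of the gut, rose from 11.1 to 24.2 FPKM, a log2 ratio of 1.12 (interval 0.997 to 1.25). Slc39a14, which also carries iron and manganese, rose from 14.02 to 28.8 FPKM, with a log2 ratio of 1.04 as deposited and 0.94 with the libraries scaled to the same sum. Slc39a8 (chr3:135825279-135888572), a zinc and manganese importer, fell from 24.6 to 5.85 FPKM, a log2 ratio of -2.07 (interval -2.23 to -1.92). Slc39a5 fell from 2.22 to 0.484 FPKM, and it overlaps Ankrd52 (20.3 and 24.01 FPKM) on the opposite strand. Slc39a5 passed the FPKM minimum only in Diff–CONT, which fixed its direction.

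The most abundant zinc carriers were nearly level between the libraries. Slc39a7, of the secretory pathway, had 119 and 118 FPKM, Slc39a1 48.7 and 47.5 and Slc39a10 42.5 and 45.8. The 13 Slc39 members summed to 327 and 358 FPKM and the 8 Slc30 members to 89.9 and 107. Among the other metals, Slc40a1, which exports iron, had 16.98 and 12.03 FPKM, Slc11a2, which imports it, 14.3 and 17.5, and the copper importer Slc31a1 25.8 and 19.97. The zinc-binding metallothioneins, which are no carriers, were higher, Mt1 from 60.9 to 149.5 FPKM and Mt2 from 73.6 to 294.

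In the mitochondrial family 2 of 36 members rose, an ADP/ATP carrier among them, and the other 34 stayed within 2-fold. The 2 are 5.56% of the family, where 6.73% of all expressed genes rose and 8.39% fell. Slc25 proteins sit in the inner membrane and exchange nucleotides, phosphate, amino acids and other metabolites with the cytosol. Slc25a5 (chrX:36795651-36798807) rose from 179 to 389.7 FPKM, a log2 ratio of 1.12 (interval 1.07 to 1.17), while its paralogue Slc25a4, the heart and muscle form, had 294 and 268 FPKM. Slc25a4 was the higher of the pair in Diff–CONT and Slc25a5 in the library labelled Diff–iKO. Slc25a5 has near-identical processed copies in the genome, and how reads shared with them were counted is not given.

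Slc25a43 rose from 0.458 to 2.55 FPKM, a log2 ratio of 2.47 (interval 1.52 to 3.42), on 13 and 52 fragments, the fewest of any member past the cut-off in Diff–CONT. It passed the FPKM minimum only in the library labelled Diff–iKO, which fixed its direction. The phosphate carrier Slc25a3 had 216 and 354 FPKM, and Slc25a39, which brings in glutathione, 67.1 and 100.5. Slc25a20, which carries acylcarnitines for fatty acid oxidation, had 12.7 and 23.2 FPKM and the iron carrier Slc25a37 11.2 and 7.25. The class summed to 1167 and 1568 FPKM, and no member fell, with the lowest log2 ratio -0.83 for Slc25a30.

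**Figure D4:**
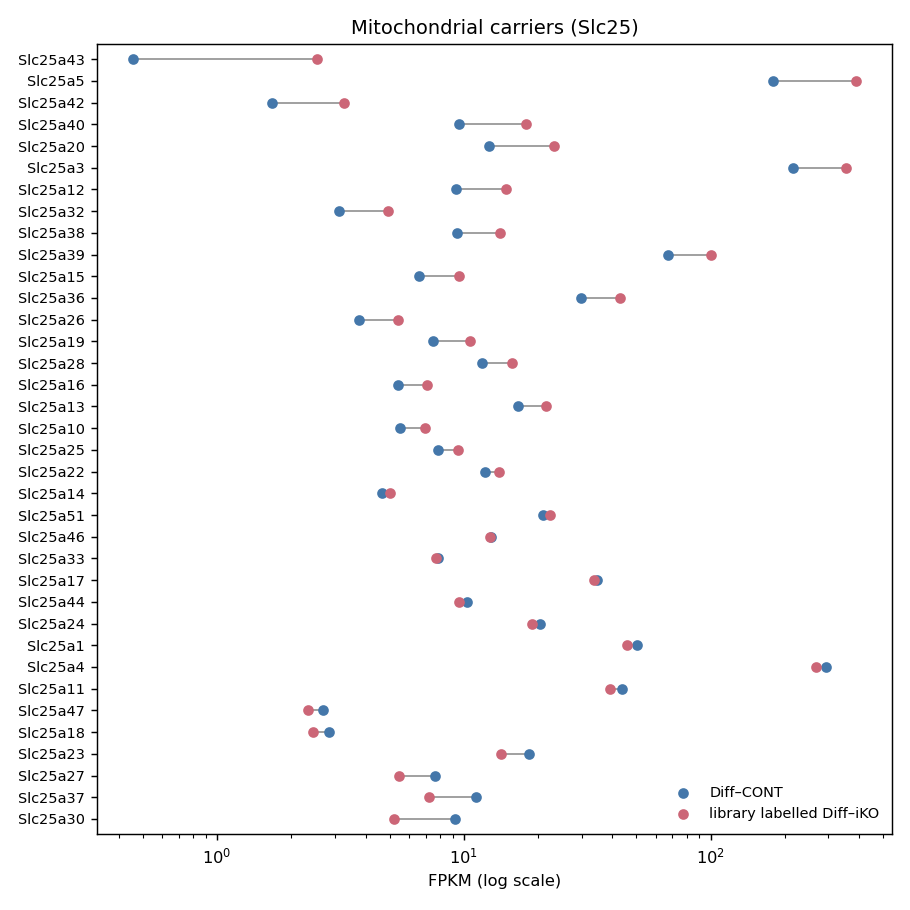
FPKM (log scale) of the 36 mitochondrial Slc25 carriers in Diff–CONT and the library labelled Diff–iKO, joined by a line for each gene and ordered by their ratio. Slc25a5, Slc25a3 and Slc25a4 are the most abundant, and Slc25a43 shows the widest gap, from 0.458 to 2.55 FPKM.

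Of 6 nucleoside carriers 2 rose and none fell, where 6.73% and 8.39% of all expressed genes did. Slc28a1, which concentrates pyrimidine nucleosides with sodium, rose from 1.53 to 10.2 FPKM, a log2 ratio of 2.74 (interval 2.45 to 3.03). It passed the FPKM minimum only in the library labelled Diff–iKO, which fixed its direction. Slc29a1 (chr17:45585200-45599606), the widely expressed equilibrative carrier, rose from 40.9 to 106 FPKM, a log2 ratio of 1.37 (interval 1.30 to 1.45). The 4 others of the class had log2 ratios from -0.37 for Slc43a3 to 0.58 for Slc29a4, which also carries monoamines.

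Among 11 vitamin and choline carriers 2 rose and none fell, where 6.73% and 8.39% of all expressed genes did. Slc19a2, a thiamine carrier, rose from 18.05 to 40.1 FPKM, a log2 ratio of 1.15 (interval 1.07 to 1.24), and Slc52a3, a riboflavin carrier, from 1.95 to 6.52 FPKM, a log2 ratio of 1.74 (interval 1.42 to 2.08). Slc52a3 passed the FPKM minimum only in the library labelled Diff–iKO, which fixed its direction. Several more carriers of the class lay just short of the cut-off. Slc23a2, which takes up vitamin C, had 8.05 and 15.8 FPKM, Slc5a6, which takes up biotin and pantothenate, 8.44 and 16.1, and Slc5a7, the choline carrier of cholinergic neurons, 3.09 and 5.95. The most abundant, Slc44a2, a choline carrier, had 75.1 and 76.4 FPKM.

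Of 7 neurotransmitter and osmolyte carriers 3 fell, all known from neurons, and 1 rose, where 8.39% and 6.73% of all expressed genes did. The 3 that fell were under FPKM 2 in the library labelled Diff–iKO, and with a pseudocount of 1 Slc6a4 (-0.93) and Slc17a8 (-0.97) were short of the cut-off. Slc18a2, which loads monoamines into vesicles, fell from 3.002 to 0.765 FPKM, a log2 ratio of -1.97 (interval -2.38 to -1.56). The serotonin carrier Slc6a4 fell from 4.47 to 1.88 FPKM and the vesicular glutamate carrier Slc17a8 from 2.08 to 0.575. Of the osmolyte carriers, Slc6a12, which takes up betaine, rose from 0.462 to 2.78 FPKM. The abundant taurine carrier Slc6a6 had 101 and 121 FPKM and the creatine carrier Slc6a8 20.9 and 32.6. Slc6a12 passed the FPKM minimum only in the library labelled Diff–iKO and the 3 that fell only in Diff–CONT, which fixed their directions. Only Slc6a6 and Slc6a8 reached FPKM 2 in both libraries. The class has 7 members, and its median of -0.89 turns to 0.45 where FPKM of at least 2 is required in both libraries.

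Of 20 carriers of organic anions, cations and lipids 5 rose and 1 fell, where 6.73% and 8.39% of all expressed genes did. Slco2a1, which takes up prostaglandins, rose from 7.25 to 27.7 FPKM, a log2 ratio of 1.94 (interval 1.85 to 2.02). Its relative Slco4c1 rose from 1.30 to 3.70 FPKM, and it overlaps the antisense gene Panct2, at 0.241 and 1.34 FPKM. Slco4c1 passed the FPKM minimum only in the library labelled Diff–iKO, which fixed its direction. Slc27a2, which activates and takes up long fatty acids, rose from 2.88 to 8.56 FPKM and Slc33a1, which brings acetyl-CoA into the endoplasmic reticulum, from 8.96 to 18.2. Slc10a3 rose from 5.20 to 10.99 FPKM, and it overlaps Ubl4a (15.9 and 20.3 FPKM) on the same strand. With the libraries scaled to the same FPKM sum Slc10a3 (0.99) and Slc33a1 (0.93) were short of the cut-off, as they were with a pseudocount of 1 (0.95 for each). Slc22a23, an organic ion carrier with no settled cargo, fell from 21.05 to 9.31 FPKM, a log2 ratio of -1.18 (interval -1.27 to -1.08).

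The 5 genes named after a carrier were all within 2-fold. The most abundant, Slc9a3r1, a scaffold under the plasma membrane, had 71.98 and 46.5 FPKM. The counting intervals of all 39 members past the cut-off are plotted together.

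**Figure D5:**
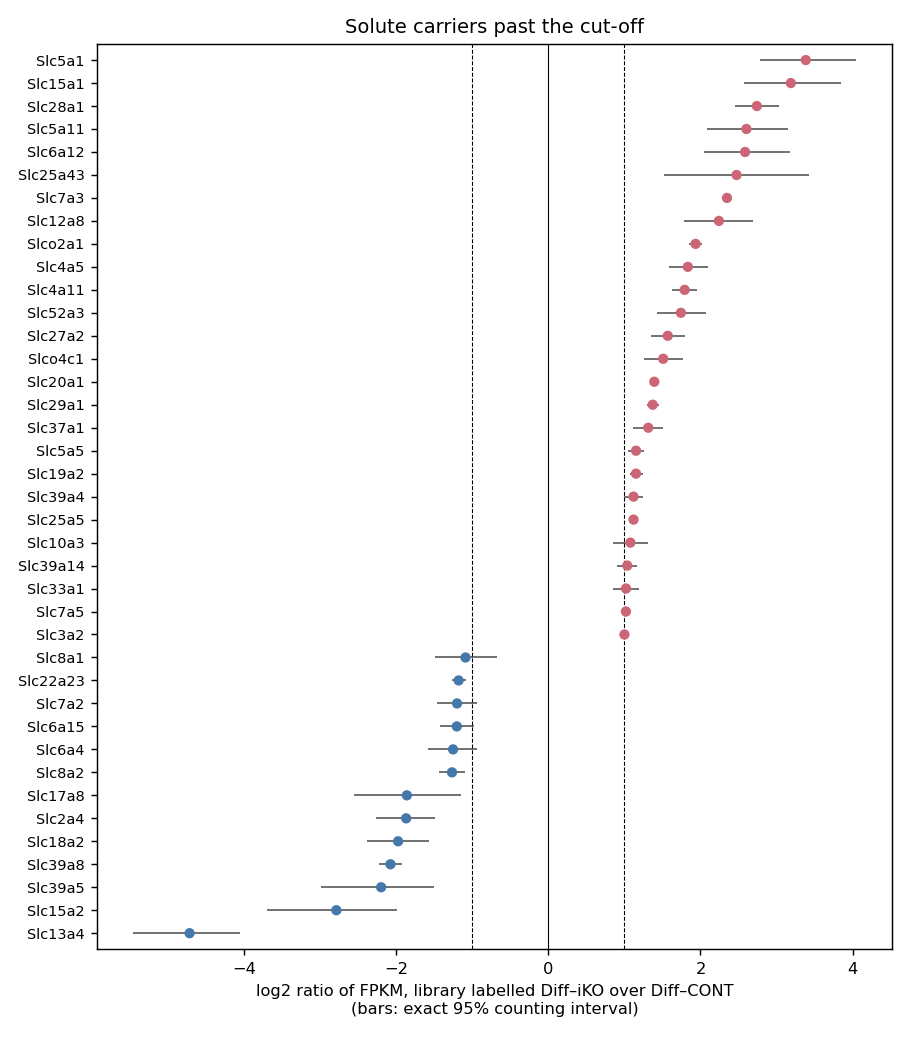
Log2 ratio of FPKM, the library labelled Diff–iKO over Diff–CONT, for the 39 solute carriers past the 2-fold cut-off (dashed lines), with exact 95% counting intervals as bars. Slc25a43 has a wide bar, 2.47 with an interval of 1.52 to 3.42, and abundant genes such as Slc20a1 have bars hardly wider than the point.

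On the X chromosome, 4 of 9 members rose and none fell, beside 22 and 13 of the 180 members elsewhere. They were Slc7a3, Slc25a5, Slc25a43 and Slc10a3, the last of them short of the cut-off at equal FPKM sums. Slc25a43 passed the FPKM minimum only in the library labelled Diff–iKO. The 4 are 15.4% of the members that rose, while X-linked genes were 4.76% of the members and 3.54% of all expressed genes with a position. The median log2 ratio was 0.64 over the X-linked members and 0.19 over all 437 expressed X-linked genes. Off the X it was 0.26 over the members and -0.0084 over all expressed genes. Of the 437, 62 rose and 33 fell, or 14.2% and 7.55%, where 6.40% and 8.43% of expressed genes off the X did. Slc25a43 and Slc25a5 lie 18449 bases apart on the X, and 12 pairs of members lay within 200 kb of each other in the genome. In 6 of those pairs both ratios had the same sign. Xist differed between the same libraries, and its part in the X-linked members was not tested.

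The other genes of membrane transport gave a mixed picture. Their counts stand beside 6.73% of all expressed genes that rose and 8.39% that fell. Of 18 genes of metal handling, 17 passed the FPKM minimum and 4 of them rose, Mt1, Mt2, Cp and Steap3, while the copper pump Atp7b and the ferroxidase Heph fell. Of 28 ABC transporters, which use ATP to move their cargo, 21 passed the minimum. Abcc4, Abcb1a and Abcg1 rose, with log2 ratios of 1.72, 1.26 and 1.07, and Abcc9 fell, with -1.55. Abcb1a passed the FPKM minimum only in the library labelled Diff–iKO, and Abcc9 and Atp7b only in Diff–CONT, which fixed their direction. Of 15 ion pumps 11 passed the minimum and Atp1b2, a subunit of the sodium pump, fell from 29.5 to 9.47 FPKM. Emb, a partner that brings lactate carriers to the membrane, fell from 243 to 60.9 FPKM, while Bsg, with the same role, had 514 and 528. None of the 11 genes of mitochondrial pyruvate and calcium import passed the cut-off. Of 21 expressed Slc genes whose family letter is not a, 2 rose, Slc35f2 and Slc9b1, and Slc35g2 fell. Slc9b1 passed the FPKM minimum only in the library labelled Diff–iKO. A ratio above 0 was seen for 19 of the 21, beside 49.7% of expressed genes. The median log2 ratio was 0.28 over these 21 and, over all genes listed, 0.48 for metal handling, 0.36 for ABC transporters, 0.11 for ion pumps, -0.06 for mitochondrial import and -0.09 for partners of carriers.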

How the data were processed

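Poly(A) RNA of 1 Diff–CONT library and 1 library labelled Diff–iKO was sequenced in read pairs. The authors deposited FPKM values per gene, and the submitters' notes name STAR 2.7.9a, mm10 and Cuffnorm of Cufflinks 2.2.1. The annotation and the strand setting of the counting are not given in the sources used here. There were 0 other columns of values. The members, classes and gene lists were chosen with earlier results of these data known.

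FPKM in the library labelled Diff–iKO was divided by that in Diff–CONT, with no pseudocount, and given as log2. A gene was past the cut-off at a ratio of at least 2 with FPKM of at least 2 in at least 1 library. Named genes were all members past the cut-off, the 3 most abundant of each class, those nearest a threshold, and genes of the partner lists past the cut-off, and a few members were added after their values were seen. Single values of 2 members are not reported here. With 1 library per condition no test was run. Fragments were recovered from FPKM steps in genes with a single RefSeq transcript of at least 1000 nt. In each library 87.4% of the low values checked were whole to within 0.2, where chance gives 40%. Fragments of genes with several transcripts are approximate. Scripts were tested on simulated data. Tables were handled with pandas 2.3.3, intervals came from scipy 1.17.1 and plots from matplotlib 3.10.9, under Python 3.11.15. Positions are from GENCODE vM21 (GRCm38) for all 189 members. Alternatives were other pseudocounts, FPKM minimums, scalings and folds, with the X-linked members left out and whole intervals past the cut-off added after the data were seen.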

Additional observations from a re-analysis of the deposited data

How the results depend on the processing

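The direction of the median of all members held under every scaling, pseudocount and filter tried. The count of members that fell depended most on the low genes. It was 13 as reported, 8 with a pseudocount of 1, 5 with FPKM of at least 2 in both libraries and 5 with FPKM of at least 5 in 1 library. The count that rose was 26 as reported and 16 with FPKM of at least 2 in both libraries. Without a filter on FPKM 64 rose and 41 fell. At a fold of 1.5 the counts were 57 and 24, and at a fold of 4 they were 8 and 4. The pseudocount of 1 took Slc8a1 (-0.65), Slc7a2 (-0.90), Slc6a4 (-0.93), Slc17a8 (-0.97), Slc6a15 (-0.98), Slc10a3 (0.95), Slc33a1 (0.95), Slc39a14 (0.99) and Slc3a2 (0.99) under the cut-off. Scaling to the same FPKM sum, a log2 shift of -0.09, took 5 members under the cut-off, Slc3a2 (0.91), Slc7a5 (0.93), Slc33a1 (0.93), Slc39a14 (0.94) and Slc10a3 (0.99), and left 34 past it. With the X-linked members left out, 22 rose and 13 fell.

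Of the class medians, that of neurotransmitters and osmolytes, -0.89, turned to 0.45 with FPKM of at least 2 in both libraries and to 0.45 with FPKM of at least 5, which leave out its low members. It was -0.64 with a pseudocount of 1 and -0.30 without a filter. With FPKM of at least 2 in both libraries the median of nucleosides was 0.23 and that of organic anions, cations and lipids 0.29. At FPKM 5 these were 0.58 and 0.29, and that of amino acids 0.35. Without a filter ions had 0.17, organic anions, cations and lipids 0.30, and vitamins and choline 0.025. The other medians moved by at most 0.1. No paired analysis was possible because each condition has 1 library. Depth limits the low members, and the replicate error is unknown.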
